A study of Mus musculus with 16 samples.

Results

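A set of 9 genes that mark tendon and cartilage, out of 21923 in the count table, was followed in mouse gastrocnemius during cancer cachexia. The members were listed by gene symbol and were Tnmd, Scx, Mkx, Comp, Chad, Cilp2, Thbs4, Acan and Sox9. All 9 were found in the table. They were read in every mouse to describe how much tendon-type RNA each muscle sample carried. Poly(A) RNA was sequenced from 16 mice, 1 library per mouse and 4 mice per group. NOR mice were tumor-free controls, injected with PBS throughout. CAC mice carried untreated tumors and received PBS. AM mice carried tumors and received amiloride, a blocker of epithelial sodium channels and sodium-proton exchange, at 2 mg/kg each day from day 9. KD mice carried tumors grown from cells in which Rab27 had been knocked down, and received PBS. All mice were killed on day 30 as adults. In each group, replicates 1 and 2 were labelled C57BL/6, with LLC (Lewis lung carcinoma) cells in the tumor-bearing groups. Replicates 3 and 4 were labelled BABL/c, with CT26 (colon carcinoma) cells. Strain and tumor line therefore cannot be told apart, and NOR mice carried no tumor of either kind. The tumors grew under the skin of the flank, and the knock-down lay in the tumor cells, not in the muscle.

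Tendon cells (tenocytes) are specified by the transcription factor scleraxis (Scx) and the homeobox factor mohawk (Mkx), and mature tenocytes carry the membrane protein tenomodulin (Tnmd). Tendon and cartilage share a matrix of collagens held together by proteins such as cartilage oligomeric matrix protein (Comp), chondroadherin (Chad), the cartilage intermediate layer protein Cilp2 and thrombospondin 4 (Thbs4). Cartilage is set apart by the transcription factor Sox9 and its target aggrecan (Acan), the large proteoglycan that holds water in cartilage. In a calf muscle these genes are known mainly from the tendon, the sheets of tendon within the muscle and the junctions where fibres end. In such bulk samples, fewer cells of a type and less RNA per cell cannot be told apart. The muscles were removed, weighed and frozen. The sources used here do not say whether whole muscles were sequenced or how much tendon stayed on each.

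The 4 promoters below are shown because 3 of these genes fell together in CAC mice and the fourth, Thbs4, did not pass the test. Each line is the 250 bases before the gene's start in RefSeq (GRCm38.p6), 5′ to 3′ on the gene's strand. Capitals mark CANNTG, the E-box, searched on both strands (the motif reads as itself on the other strand), which is the kind of site that basic helix-loop-helix factors such as scleraxis bind. Tnmd is at chrX:133850758-133851007 (+), Chad at chr11:94564797-94565046 (+), Cilp2 at chr8:69887393-69887642 (-) and Thbs4 at chr13:92794819-92795068 (-).

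Tnmd: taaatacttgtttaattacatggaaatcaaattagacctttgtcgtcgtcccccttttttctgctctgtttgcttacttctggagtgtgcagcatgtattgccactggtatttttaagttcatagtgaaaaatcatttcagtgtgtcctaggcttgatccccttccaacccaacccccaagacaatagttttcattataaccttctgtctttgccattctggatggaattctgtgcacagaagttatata
Chad: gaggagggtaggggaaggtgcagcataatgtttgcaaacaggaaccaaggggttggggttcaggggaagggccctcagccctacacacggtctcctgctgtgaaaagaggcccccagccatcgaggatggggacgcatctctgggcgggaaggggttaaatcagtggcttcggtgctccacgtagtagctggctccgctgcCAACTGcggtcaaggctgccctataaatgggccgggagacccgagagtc
Cilp2: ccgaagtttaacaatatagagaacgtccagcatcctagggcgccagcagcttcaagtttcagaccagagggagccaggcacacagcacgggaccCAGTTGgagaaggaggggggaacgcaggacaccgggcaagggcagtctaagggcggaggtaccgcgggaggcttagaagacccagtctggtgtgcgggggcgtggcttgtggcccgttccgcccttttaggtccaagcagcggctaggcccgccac
Thbs4: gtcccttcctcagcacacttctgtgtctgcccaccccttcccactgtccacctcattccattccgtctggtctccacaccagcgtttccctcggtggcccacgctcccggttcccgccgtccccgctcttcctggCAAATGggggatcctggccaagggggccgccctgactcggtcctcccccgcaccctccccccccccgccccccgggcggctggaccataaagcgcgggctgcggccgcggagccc

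Tnmd had 0 of these motifs in its window and the other 3 had 1 each. Of 32817 promoter windows of the same length, 66.2% held at least 1, so a match says little about these genes. The TATA motif TATAAA, searched on both strands, occurred once, in Chad, and in 12.4% of all windows.

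Total counts per library were 35913190 to 61032708. Genes of tissues other than muscle varied between libraries. Liver genes were highest in AM-1 (Alb, albumin, at 1222 CPM, counts scaled to library size). Bone genes and several cartilage genes were highest in AM-3 and KD-4, given below with Acan. Lymphocyte genes summed to 7.35 to 18.3 CPM in NOR-1, CAC-1, CAC-4, KD-2 and KD-3 and to 77.6 to 559 CPM in the other 11 libraries. Erythrocyte genes were highest in KD-2 and AM-2, at 21332 and 15868 CPM. KD-3 had 0 counts for 4 Y-linked genes that the other 15 libraries expressed, which allows at most 0.0566 CPM each. The labels give male and female mice for BALB/c and do not say which library is which, whereas the authors' methods name male mice. Skeletal muscle genes were present in all 16 libraries, with 6 slow-fibre genes summing to 824 to 5713 CPM. Slow-fibre genes were highest in KD-2 and KD-3, where Myh7, the slow myosin heavy chain, reached 2462 and 2113 CPM against at most 1310 CPM elsewhere. CPM values were normalized between libraries by TMM, which sets a common scale from genes that change little.

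Between genes, levels were compared per length, as FPKM (fragments scaled to gene length and library size). In NOR muscle, mean FPKM was 92.2 for Thbs4, 24.9 for Chad, 23.9 for Comp, 16.8 for Tnmd, 10.04 for Scx, 9.17 for Cilp2, 1.77 for Sox9, 0.79 for Mkx and 0.03 for Acan. Much of this order cannot be read from these samples. Chad, Comp and Tnmd overlapped with each other, at 21.13 to 31.66, 17.74 to 33.51 and 12.52 to 23.44 FPKM. Scx, at 7.66 to 15.06 FPKM, overlapped with Tnmd and with Cilp2, at 7.32 to 10.78 FPKM, and Sox9, at 0.63 to 2.93 FPKM, with Mkx, at 0.69 to 1.06 FPKM. The ranges of the other neighbours in the order were apart. The tenocyte genes were thus measurable in every NOR muscle, whereas Acan, the defining proteoglycan of cartilage, was at or near 0.

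The first comparison, CAC vs. NOR, asked how the genes stood in muscle of mice with untreated tumors. A call required an FDR of at most 0.05 over all tested genes in edgeR's quasi-likelihood F test and a fold change of at least 1.5. Of the 8 members tested, 4 fell, 0 rose and 4 did not pass, beside 5.13% of all 14666 tested genes that fell and 4.32% that rose. The 4 that fell were Tnmd, Comp, Chad and Cilp2, and all were structural or membrane proteins of the mature tissue. Scx, Mkx and Sox9, the 3 transcription factors, and Thbs4 did not pass. Acan was too low to be tested. DESeq2, limma-voom and edgeR with labelled strain as a covariate each called the same 4 lower, beside 7.41%, 5.63% and 5.71% of all genes they tested.

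Tnmd, the marker of mature tenocytes, was at 37.6, 24.3, 17.5 and 16.5 CPM in NOR replicates 1 to 4 and at 2.63, 2.53, 1.37 and 2.70 CPM in CAC replicates 1 to 4. The groups did not overlap, with every CAC mouse far below every NOR mouse. The log2 fold change was -3.38 ± 0.34 (SE, n = 4 per group, FDR = 0.00214 by edgeR), so that the fitted CAC level was 10.4-fold lower. The gene lies on chromosome X, at 133850980 to 133865577 of GRCm38.

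Comp, a pentameric protein that binds collagen fibrils, was at 39.8, 47.7, 26.0 and 30.3 CPM in NOR and at 11.6, 7.20, 3.31 and 5.65 CPM in CAC. These groups did not overlap either. Its log2 fold change was -2.38 ± 0.38 (SE, edgeR FDR = 0.00743), the least of the 4. Comp (70373558 to 70382066) and Cilp2 (69880369 to 69887687) lie near each other on chromosome 8 of GRCm38.

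Chad, a small leucine-rich protein that binds collagen and cells, was at 47.4, 52.0, 38.9 and 34.7 CPM in NOR and at 6.30, 6.69, 1.86 and 1.09 CPM in CAC. Again the groups were apart, and within CAC both BABL/c mice lay below both C57BL/6 mice. The log2 fold change was -3.45 ± 0.57 (SE, edgeR FDR = 0.00858). Chad lies within Acsf2, on the opposite strand (chromosome 11, 94565047 to 94569127 of GRCm38), and 0 of its 1680 exon bases fall in an exon of Acsf2. Whether the counting used strand is not given in the sources used here. Acsf2 itself was at 15.6 ± 4.2 CPM in NOR and 13.5 ± 4.0 CPM in CAC (SD, n = 4). In CPM, its mean was below that of Chad in NOR and above it in CAC, where Chad averaged 3.99 CPM, and in KD, at 18.2 against 14.7 CPM. Per length, Acsf2 was below Chad in KD, at 5.97 against 8.89 FPKM. How many reads of the unspliced host were counted as Chad was not tested.

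Cilp2, a matrix protein of cartilage and tendon, was at 55.2, 42.6, 31.9 and 35.6 CPM in NOR and at 3.40, 4.69, 1.52 and 1.32 CPM in CAC. It showed the largest fall of the members, with groups apart and a log2 fold change of -3.93 ± 0.44 (SE, edgeR FDR = 0.00272), a 15.2-fold lower level. In the table of all tested genes ordered from the largest fall, Cilp2 stood 17th, Chad 25th, Tnmd 29th and Comp 89th of 14666. In each of these 4 genes the lowest NOR mouse stood above the highest CAC mouse, as did 10.5% of all tested genes.

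**Figure D1:**
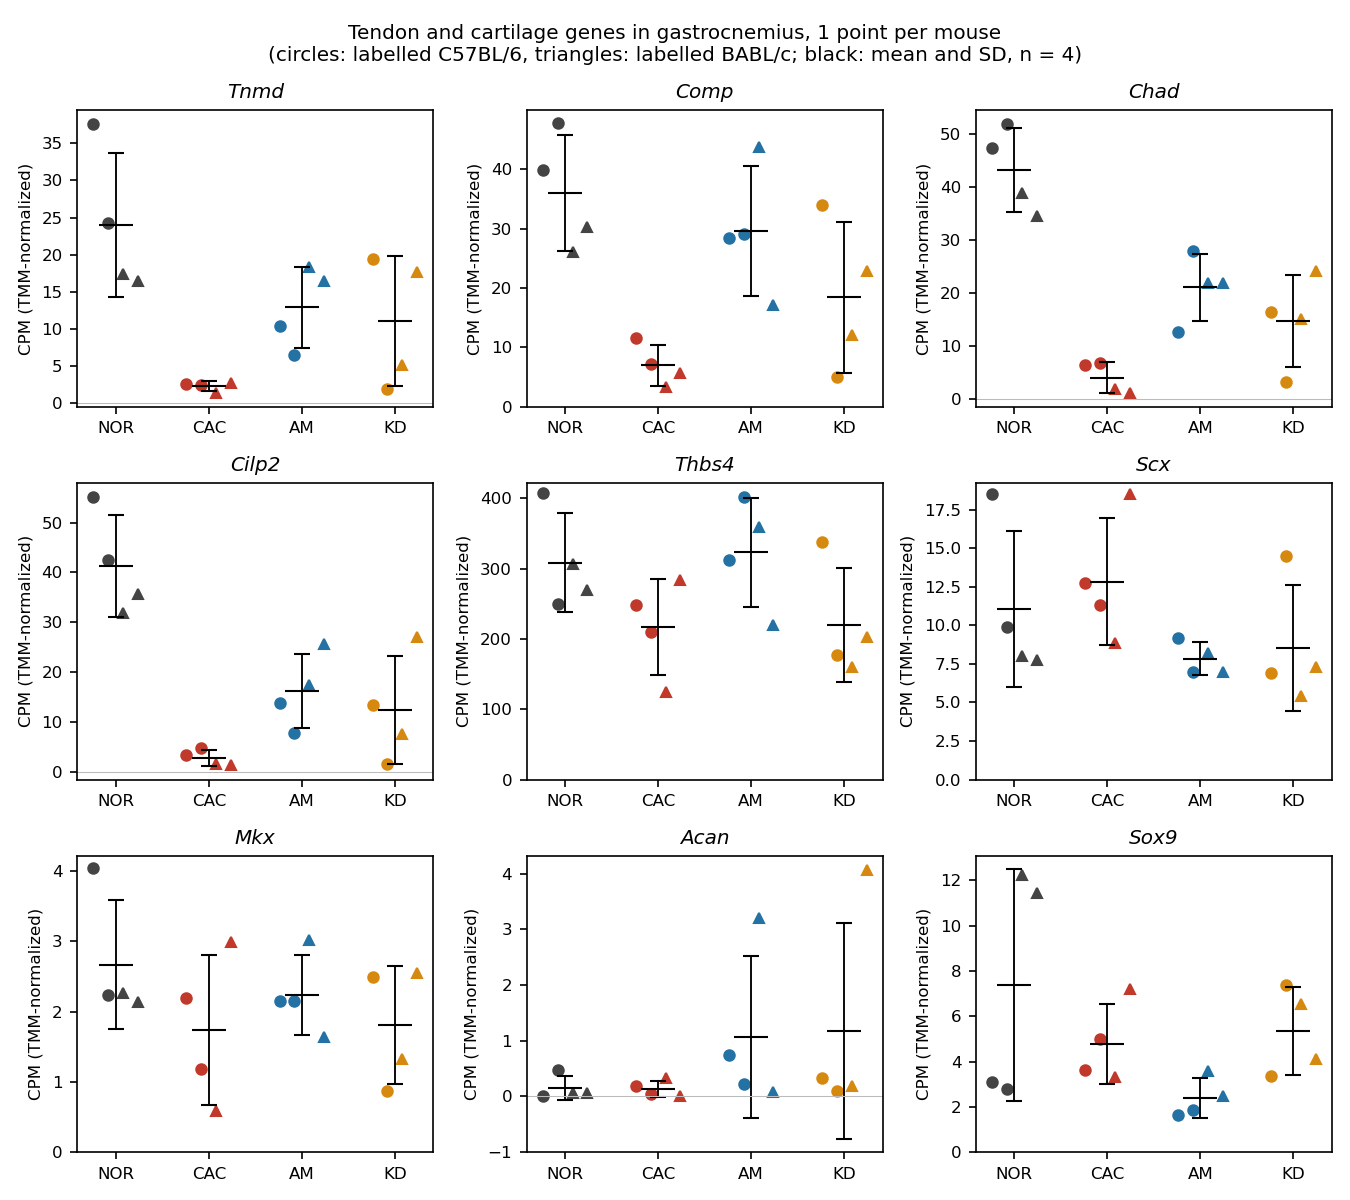
Level of each gene in each mouse, in TMM-normalized CPM on a linear axis, by group; circles are mice labelled C57BL/6, triangles mice labelled BABL/c, and black bars the mean and SD of 4 mice. For Tnmd, Comp, Chad and Cilp2 all CAC mice lie below all NOR and all AM mice, whereas KD-2 lies among the CAC mice; for Acan, AM-3 and KD-4 stand above the rest at 3.21 and 4.07 CPM.

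Thbs4, a thrombospondin of tendon and muscle matrix, was by far the most abundant member. It was at 407, 250, 307 and 269 CPM in NOR and at 248, 210, 124 and 284 CPM in CAC. The groups overlapped through CAC-4, and the log2 fold change was -0.51 ± 0.26 (SE, edgeR FDR = 0.236). Among the 5 thrombospondins, which include Comp, 1 was called, and it was Comp. Thbs1, Thbs2, Thbs3 and Thbs4 had log2 fold changes of 0.62, -0.33, -0.55 and -0.51.

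Scx was at 18.5, 9.87, 8.03 and 7.74 CPM in NOR and at 12.7, 11.3, 8.85 and 18.5 CPM in CAC. The ranges of the groups were nearly the same, and the log2 fold change was 0.22 ± 0.33 (SE, edgeR FDR = 0.727). Its value turned to -0.01 without CAC-4. Scx lies within Bop1 on the opposite strand (chromosome 15, 76457452 to 76459458 of GRCm38). None of its bases, 0 of 2007, falls in an exon of Bop1, but Bop1 was the more abundant gene, at 49.5 ± 3.4 CPM in NOR and 60.0 ± 5.1 CPM in CAC (SD, n = 4). Without stated strand, how many reads of the unspliced host were counted as Scx was not tested.

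Mkx was at 4.04, 2.23, 2.26 and 2.14 CPM in NOR and at 2.20, 1.18, 0.59 and 2.99 CPM in CAC. Single CAC mice thus lay both above and below the NOR mice other than NOR-1. The log2 fold change was -0.61 ± 0.48 (SE, edgeR FDR = 0.448). The counts behind these values were 31 to 190 per CAC library, the thinnest among the members apart from Acan.

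Sox9 was at 3.12 and 2.79 CPM in the C57BL/6 NOR mice and at 12.2 and 11.4 CPM in the BABL/c NOR mice, the widest split by labelled strain among the tested members in NOR. CAC mice were at 3.63, 5.00, 3.33 and 7.19 CPM. The log2 fold change was -0.63 ± 0.53 (SE, edgeR FDR = 0.488) over both strains, and -0.32 ± 0.41 (SE, edgeR FDR = 0.667) with strain as a covariate. As log2 ratios of group means, CAC stood 0.55 above NOR in C57BL/6 mice and at -1.17, below NOR, in BABL/c mice, and the interaction had an FDR of 0.941 by edgeR. It therefore failed the correction.

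As every CAC mouse lay below every NOR mouse for the 4 genes that fell, changes within each labelled strain were bound to be negative. In C57BL/6 mice, 2 against 2, the log2 fold changes of Tnmd, Comp, Chad and Cilp2 were -3.53, -2.18, -2.90 and -3.55, with 3 calls by edgeR, beside 0.835% of all tested genes called lower, and an FDR of 0.0519 for Comp. In BABL/c mice they were -3.07, -2.66, -4.64 and -4.57, with 0 calls, where 0% of all tested genes were called lower, and FDR values of 0.105, 0.0976, 0.0854 and 0.0668. The difference between strains was tested as an interaction, which 0 members passed by edgeR, with unadjusted p = 0.00219 for Chad, 0.0170 for Cilp2 and 0.0174 for Sox9, where 4.89% of all tested genes had p under 0.05. DESeq2 called 1 member, Chad, in that test, beside 0.852% of all genes it tested.

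Of 14 other tendon matrix genes and tendon factors, all tested, 9 fell, 0 rose and 5 did not pass, and the median log2 fold change was -1.44, against 0.01 over all tested genes. Kera, encoding keratocan, had the largest fall, from 20.1 to 1.08 CPM (log2 fold change -4.22 ± 0.59, SE, edgeR FDR = 0.00473). The chains of type I collagen, Col1a1 and Col1a2, fell by 3.61 and 3.12 on the log2 scale, and Col12a1, Col14a1, Fmod (fibromodulin), Clec11a, Ptgis and the factor Egr1 by 0.97 to 2.26. Prg4, encoding lubricin, had a log2 fold change of 0.86 (edgeR FDR = 0.132), and Tnc, encoding tenascin C, one of -0.28 (edgeR FDR = 0.741). Thbs2, Cilp and the factor Egr2 were the others that did not pass, at -0.33, -0.51 and -0.40 (edgeR FDR = 0.207, 0.146 and 0.395). This list and the others were chosen with earlier results of these data known.

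Of 17 listed cartilage genes, 16 were in the table, 9 were abundant enough to be tested, 4 fell and 0 rose. Of these 4, Matn3 and Col2a1 passed the count filter only through NOR, with at most 4 and 6 counts per CAC library. Their falls are therefore not independent of the filter. Col2a1, the main collagen of cartilage, was at 1.28 to 3.12 CPM in NOR and at 0 to 0.114 CPM in CAC. Col11a1 and Col11a2, which nucleate fibrils, fell by 2.77 and 2.29 on the log2 scale, and Matn3 was the fourth. Sox5 and Sox6, the partners of Sox9, had log2 fold changes of -0.22 and -0.23 (edgeR FDR = 0.626 and 0.478).

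Genes of the myotendinous junction, where fibres meet tendon, were mixed, with 1 called. Of 6 tested, 1 fell, the junction collagen Col22a1, with a log2 fold change of -2.04 ± 0.43 (SE, edgeR FDR = 0.0194) and NOR values of 27.3 to 53.9 CPM against 4.40 to 14.6 CPM in CAC. Ankrd1, a stress-responsive muscle gene, was higher in every CAC mouse than in any NOR mouse but not called, with a log2 fold change of 1.66 ± 0.52 (SE, edgeR FDR = 0.0687). The median of the 6 was -0.17. In the TGF-beta pathway, which induces tendon cells, 0 of 13 genes were called by edgeR with the fold limit, and 3 had an unadjusted p under 0.05 upward and 2 downward, as had 15.5% and 13.6% of all tested genes. Tgfbr1 and Ltbp1 passed the FDR limit short of the fold limit, in opposite directions, with log2 fold changes of 0.53 and -0.51 (edgeR FDR = 0.0107 and 0.0278).

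Markers of muscle fibroblasts, the other collagen-producing cells of muscle, moved mostly the same way. Of 11 tested, 3 fell, namely Col3a1 (log2 fold change -3.0), Dpt (-1.47) and Clec3b (-1.33), and the median was -0.85. Unadjusted p was under 0.05 downward for 8 of the 11 and upward for 0, beside 13.6% of all tested genes downward. In 6 of the 11 every CAC mouse lay below every NOR mouse, as in 10.5% of all tested genes. Pdgfra, the defining receptor of these cells, was at 63.8 ± 6.0 CPM in NOR and 47.7 ± 14.3 CPM in CAC (SD, n = 4; log2 fold change -0.42, edgeR FDR = 0.190). The summed level of the list was 4378 to 5648 CPM in NOR and 1815 to 3154 CPM in CAC, and its part in the fall of the tendon genes was not tested. Erythrocyte markers rose, with 5 of 5 called and a summed level of 1049 to 1359 CPM in NOR against 3628 to 8615 CPM in CAC. Markers of Schwann cells, slow fibres, adipocytes and lymphocytes gave 0 calls by edgeR in 27 tested genes, of which 1, a Schwann cell gene, had an unadjusted p under 0.05, against 29.1% of all tested genes. Of 5 bone markers 2 were abundant enough to be tested, and 1 fell. It was Phex, encoding an endopeptidase of bone cells, at 0.661 to 1.06 CPM in NOR and 0.133 to 0.340 CPM in CAC, from 7 to 15 counts per CAC library (log2 fold change -2.12 ± 0.39, SE, edgeR FDR = 0.0124).

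**Figure D2:**
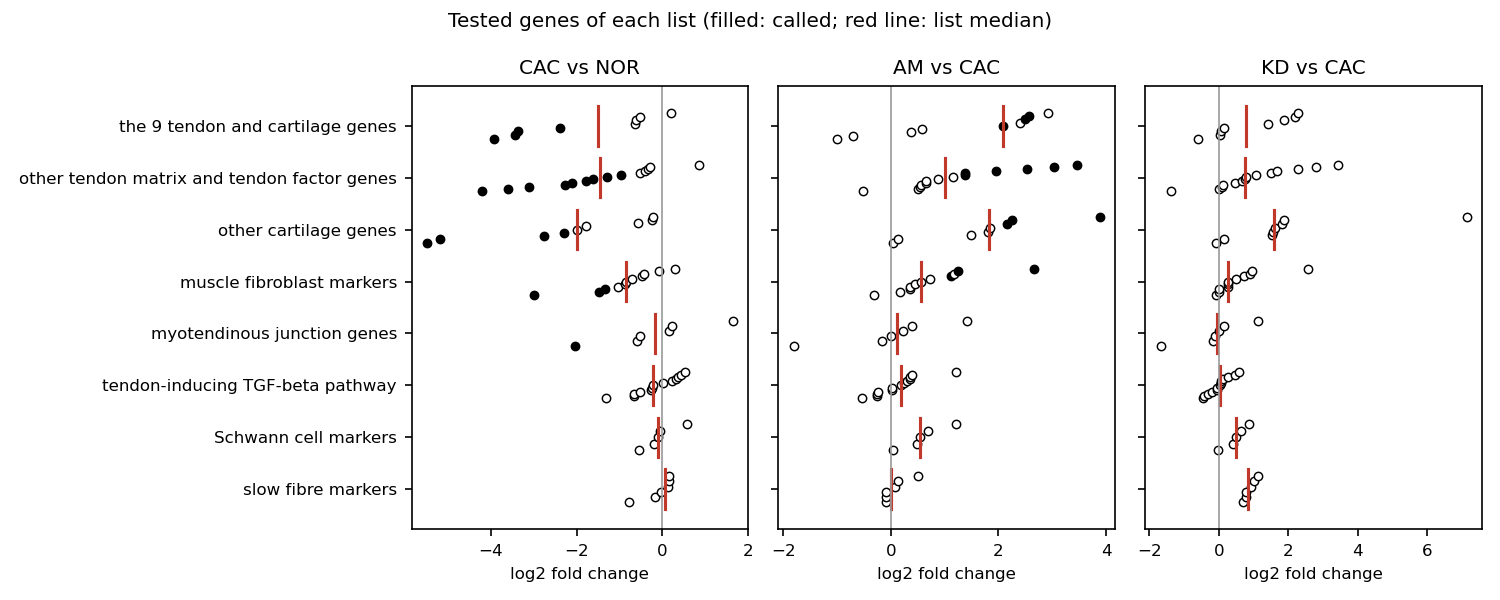
Log2 fold change of every tested gene of 8 lists for CAC against NOR and for AM and KD each against CAC; filled points passed the FDR and fold limits, and red lines mark each list's median. In CAC vs. NOR the medians of the other tendon and cartilage lists are -1.44 and -2.0, and those of the TGF-beta, Schwann and slow-fibre lists -0.20, -0.08 and 0.06, with single genes of these 3 lists as low as -1.32, -0.54 and -0.78. The cartilage median covers only the 9 tested of 16 genes, including Matn3 and Col2a1, which passed the count filter only through NOR.

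The second comparison, AM vs. CAC, asked whether the genes differed in tumor-bearing mice given amiloride. All 9 members were tested, and 3 rose, 0 fell and 6 did not pass, beside 1.63% of all 14674 tested genes that rose and 2.03% that fell. The 3 were Tnmd, Comp and Cilp2. CAC mice serve in this comparison and in CAC vs. NOR, so the opposite directions of these comparisons are not independent of each other.

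Tnmd was at 10.5, 6.54, 18.4 and 16.5 CPM in AM replicates 1 to 4, all above the highest CAC mouse at 2.70 CPM. Its log2 fold change was 2.49 ± 0.36 (SE, n = 4 per group, edgeR FDR = 0.0111), a 5.61-fold higher level. Comp was at 28.4, 29.0, 43.7 and 17.2 CPM in AM, again all above CAC, with a log2 fold change of 2.09 ± 0.40 (SE, edgeR FDR = 0.0260). Cilp2 was at 13.9, 7.85, 17.5 and 25.6 CPM in AM, against at most 4.69 CPM in CAC, with a log2 fold change of 2.57 ± 0.51 (SE, edgeR FDR = 0.0281). These 3 genes were higher in all 4 AM mice than in any CAC mouse.

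Chad was at 12.6, 27.9, 22.0 and 21.9 CPM in AM and missed the limit. Although every AM mouse stood above the highest CAC mouse at 6.69 CPM, its log2 fold change of 2.41 ± 0.58 (SE) had an FDR of 0.0531 by edgeR. With Chad, 4 members had groups that did not overlap upward, against 6.08% of all tested genes. DESeq2 and limma-voom each called 4 members higher, beside 4.48% and 1.74% of all genes they tested. With labelled strain as a covariate edgeR called 3 higher, beside 0.784% of all tested genes. These were Tnmd, Comp and Chad (FDR = 0.0270, 0.0381 and 0.0473), while Cilp2 missed the limit (FDR = 0.0563).

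Leaving out any 1 mouse lowered the number of calls while the fold changes stayed similar. The number of members called was 1 without CAC-4, without AM-1 or without AM-3, and 2 without any of the other 5 mice. Over all tested genes, the share called higher also dropped, to 0.408% to 1.2% in these 8 fits. Tnmd was called in each of these 8 fits, with an FDR of at most 0.0404. Comp and Cilp2 reached FDR values of 0.0693 and 0.0742 by edgeR, with log2 fold changes of 1.86 to 2.45 and 2.25 to 2.97. Without both AM-1 and AM-3, the libraries highest in liver and in cartilage and bone genes, 0 members were called, where 0.00664% of all tested genes were called higher. Tnmd, Comp, Chad and Cilp2 then had log2 fold changes of 2.32, 1.74, 2.65 and 2.62. With 2 AM mice left, the FDR values were 0.106 to 0.175.

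By labelled strain, the C57BL/6 mice gave log2 fold changes of 1.72, 1.61, 1.64 and 1.43 for Tnmd, Comp, Chad and Cilp2, and the BABL/c mice 3.08, 2.75, 3.88 and 3.91. Each strain alone gave 0 calls of members with 2 mice against 2, where 0% of all tested genes were called higher in either (FDR 0.162 to 0.217 and 0.146 to 0.233 by edgeR). The difference between strains did not pass for any member by edgeR, with unadjusted p = 0.00257 for Cilp2, 0.00776 for Chad and 0.0383 for Tnmd where 12.4% of all tested genes had p under 0.05. DESeq2 called Chad and Cilp2 in that test, beside 3.21% of all genes it tested.

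Of the transcription factors, 0 passed in AM vs. CAC. Scx was at 9.18, 6.96, 8.23 and 6.99 CPM in AM, with a log2 fold change of -0.71 ± 0.22 (SE, edgeR FDR = 0.110), so its value lay below zero where those of Tnmd, Comp, Chad and Cilp2 lay above. Bop1, its host gene, was at 47.5 ± 4.2 CPM in AM against 60.0 ± 5.1 CPM in CAC (SD, n = 4). Mkx was at 2.15, 2.14, 3.02 and 1.64 CPM (log2 fold change 0.37, edgeR FDR = 0.713). Sox9 was at 1.63, 1.87, 3.59 and 2.47 CPM, the lowest group mean of the 4 groups, with a log2 fold change of -1.0 ± 0.33 (SE, edgeR FDR = 0.124) against CAC.

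Thbs4 was at 312, 401, 359 and 220 CPM in AM, overlapping with both NOR and CAC, with a log2 fold change of 0.58 ± 0.27 (SE, edgeR FDR = 0.254) against CAC. Of the 14 other tendon genes, 6 rose and 0 fell in AM vs. CAC. They were Kera (log2 fold change 3.47), Col1a1 (3.02), Col1a2 (2.52), Clec11a (1.96), Col14a1 (1.39) and Fmod (1.37). The median of the list was 1.01 against 0.01 over all tested genes. Egr1 and Col12a1 had log2 fold changes of 1.15 and 0.87 (edgeR FDR = 0.115 and 0.0942). Of 8 cartilage genes tested, 3 rose, Hapln1, Col11a1 and Col11a2. Of these, Hapln1 passed the count filter only through AM, with at most 4 counts per CAC library, and was not tested in CAC vs. NOR. In the fibroblast list 3 of 11 rose, again Col3a1, Dpt and Clec3b, and its summed level was 3575 to 4589 CPM in AM. Of 2 bone markers tested, 1 rose, again Phex, at 0.448 to 2.15 CPM in AM and highest in AM-3 (log2 fold change 2.44 ± 0.54, SE, edgeR FDR = 0.0421). Of 5 Schwann cell markers 0 were called by edgeR, with 2 at an unadjusted p under 0.05 upward, beside 9.47% of all tested genes, and their summed level was 232 to 503 CPM in AM against 119 to 244 CPM in CAC. The part of these 3 lists in the rise of the tendon genes was not tested. The TGF-beta and junction lists gave 0 calls by edgeR in 13 and 6 genes, with 3 and 2 genes at an unadjusted p under 0.05, beside 21.7% of all tested genes.

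**Figure D3:**
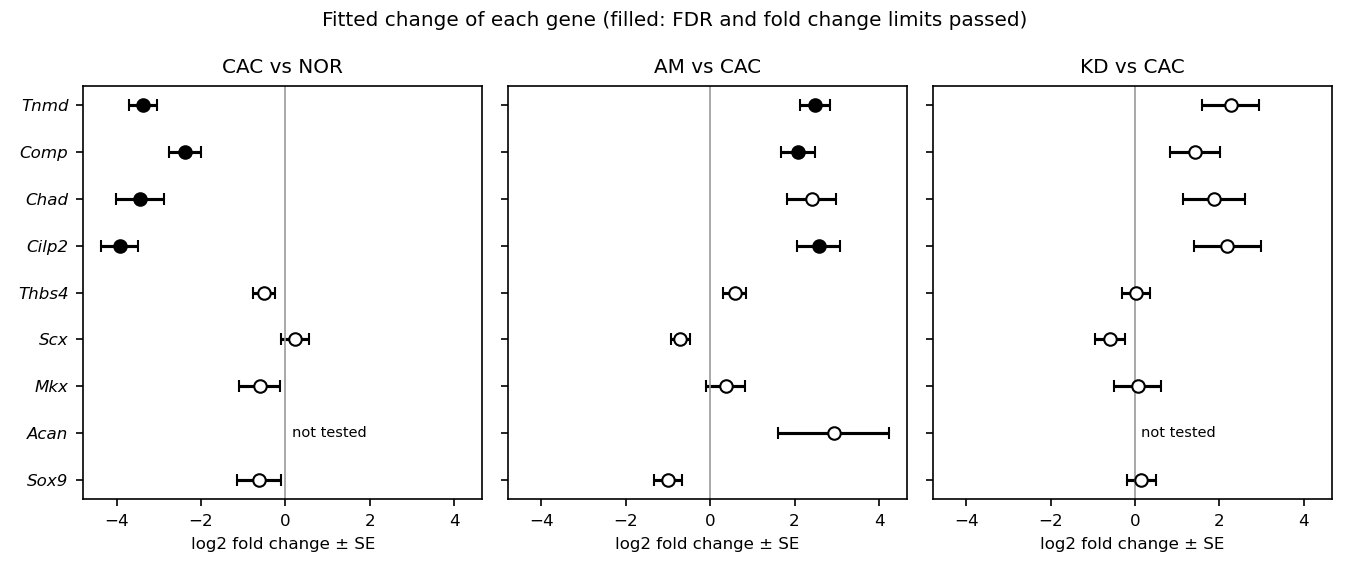
Log2 fold change of each member with its standard error for CAC against NOR and for AM and KD each against CAC, from edgeR with 4 mice per group; filled points passed the FDR and fold limits. Tnmd, Comp, Chad and Cilp2 lie at -3.93 to -2.38 in CAC vs. NOR and at 1.42 to 2.57 in the other comparisons, where standard errors are widest in KD vs. CAC.

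Against NOR, AM muscle had 0 members called of 9 by edgeR, where 0% of 14738 genes were called. Unadjusted p was under 0.05 for 4 members, all lower in AM, as for 4.13% of all tested genes. Chad and Cilp2 were below every NOR mouse in all 4 AM mice, as were 2.58% of all tested genes, with log2 fold changes of -1.03 ± 0.23 and -1.34 ± 0.33 (SE, edgeR FDR = 0.518 for both). DESeq2 called these 2 lower, beside 0.136% of all genes it tested. The other 2 were Tnmd (log2 fold change -0.87, edgeR FDR = 0.533) and Sox9 (-1.62, edgeR FDR = 0.523). Comp, at -0.27 ± 0.28 (SE), overlapped with NOR.

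The third comparison, KD vs. CAC, asked the same of tumors grown from Rab27 knock-down cells. By edgeR, 0 of 8 tested members were called, where 0.00685% of 14593 genes were, and Acan was not tested. Unadjusted p was under 0.05 for 4 members, all higher in KD, beside 6.06% of all tested genes. Limma-voom called 0, where 0% of all genes were called, and DESeq2 called 1 higher, Tnmd, with an FDR of 0.0208, beside 1.61% of all genes it tested. The SD over 4 mice was 8.76 CPM in KD and 5.44 CPM in AM for Tnmd, and 10.9 and 7.42 CPM for Cilp2.

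Tnmd was at 19.4, 1.95, 5.19 and 17.6 CPM in KD replicates 1 to 4. KD-1 and KD-4 stood within the NOR range, KD-3 between the groups, and KD-2 inside the CAC range. The log2 fold change was 2.27 ± 0.68 (SE, n = 4 per group, FDR = 0.302 by edgeR). Comp was at 34.0, 4.92, 12.0 and 22.8 CPM, Chad at 16.3, 3.10, 15.1 and 24.3 CPM, and Cilp2 at 13.3, 1.55, 7.57 and 27.1 CPM. KD-2 was the lowest KD mouse for each and overlapped with CAC in each. Their log2 fold changes were 1.42 ± 0.60, 1.88 ± 0.73 and 2.19 ± 0.79 (SE, edgeR FDR = 0.430, 0.396 and 0.369).

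Relative to the NOR mean of each gene, the 4 genes stood at 3.75% to 13.7% in KD-2, at 18.3% to 35.0% in KD-3, at 32.2% to 94.5% in KD-1 and at 56.1% to 73.6% in KD-4. The CAC mice spanned 2.51% to 32.3% and the AM mice 19.0% to 121.6%. Among other tendon genes, Kera was at 5.83% and Col1a2 at 12.6% in KD-2, and at 37.1% and 17.2% in KD-3. Col1a1 was at 16.8% in KD-2 and 13.8% in KD-3. The 14 other tendon genes summed to 515 CPM in KD-2 and 507 CPM in KD-3, both inside the CAC range of 351 to 548 CPM, and to 2012 and 2259 CPM in KD-1 and KD-4. Without KD-2, Tnmd, Comp, Chad and Cilp2 had log2 fold changes of 2.62, 1.73, 2.22 and 2.55 and edgeR FDR values of 0.0768, 0.156, 0.156 and 0.110. Fibroblast, lymphocyte, slow-fibre, adipocyte and Schwann cell markers also separated KD-2 and KD-3 from the other KD mice. Summed fibroblast markers were at 1764 CPM in KD-2 and 1942 CPM in KD-3, against 4775 CPM in KD-1 and 5937 CPM in KD-4. Summed lymphocyte markers, low in KD-2 and KD-3 as given above, were at 326 and 133 CPM in KD-1 and KD-4. Slow-fibre genes were at 5713 and 4023 CPM in KD-2 and KD-3 against 1206 and 1900 CPM in KD-1 and KD-4. Erythrocyte markers did not follow that split. They were highest of all 16 libraries in KD-2, at 21332 CPM, and at 2178 to 3919 CPM in the other KD mice. Adipocyte markers were at 664 and 501 CPM in KD-2 and KD-3 against 2312 and 1580 CPM in KD-1 and KD-4, and Schwann cell markers at 272 and 495 CPM against 199 and 205 CPM. Their part in the tendon gene levels was not tested.

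**Figure D4:**
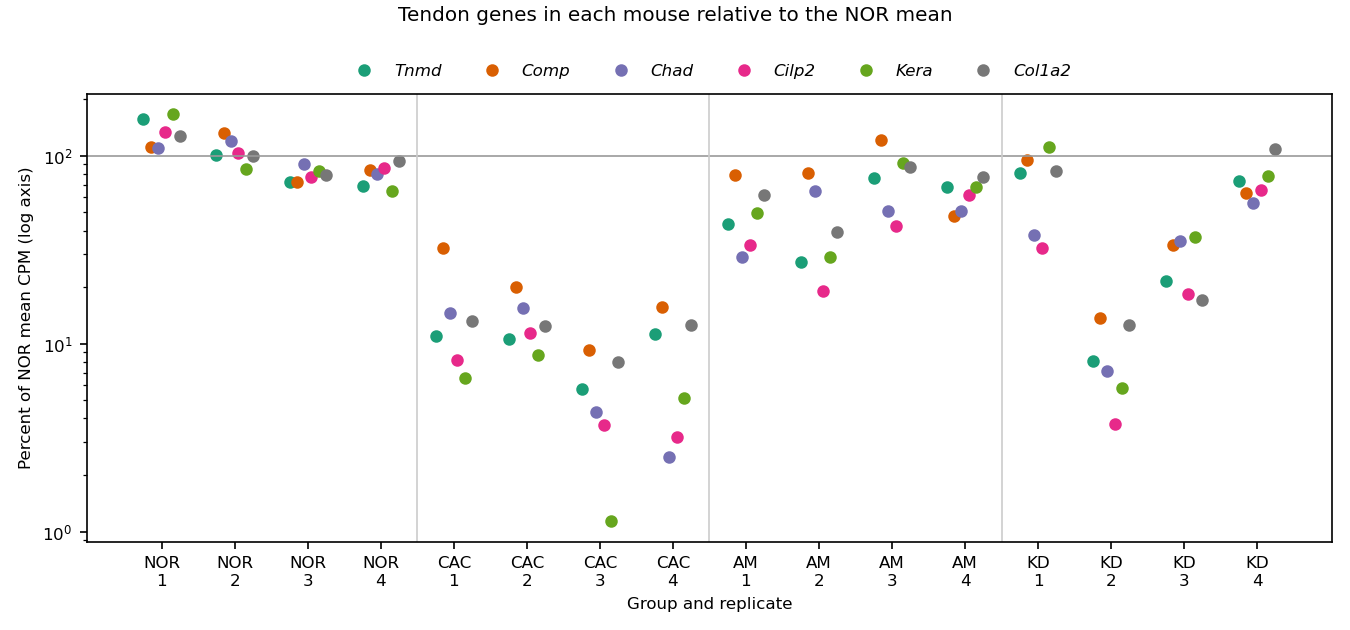
Level of Tnmd, Comp, Chad, Cilp2, Kera and Col1a2 in each of the 16 mice as a percent of that gene's NOR mean (log axis, 1 point per gene and mouse). In CAC all 6 genes are at 1.13% to 32.3%, and KD-2 lies in that range while KD-1 and KD-4 lie close to the NOR mice for most genes.

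Scx in KD was at 6.92, 14.5, 5.40 and 7.31 CPM, highest in KD-2, where Tnmd was lowest, and lowest in KD-3. The log2 fold change was -0.59 ± 0.35 (SE, edgeR FDR = 0.580). Mkx was at 2.5, 0.87, 1.32 and 2.55 CPM and lowest in KD-2, and Sox9 at 3.35, 7.40, 6.53 and 4.11 CPM and highest there. Thbs4 was at 338, 178, 160 and 203 CPM. The log2 fold changes of Mkx, Sox9 and Thbs4 were 0.06, 0.15 and 0.03, with standard errors of 0.56, 0.34 and 0.33, and their signs changed with the scaling or the mice included.

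Of the 14 other tendon genes, 0 were called in KD vs. CAC by edgeR, with 8 at an unadjusted p under 0.05 upward and 1, Prg4, downward, beside 6.06% and 5.09% of all tested genes. Kera had a log2 fold change of 3.44 ± 0.91 and Col1a1 one of 2.80 ± 0.69 (SE, edgeR FDR = 0.268 and 0.267). Against NOR, 0 of 8 members were called in KD by edgeR, where 0% of 14748 genes were, and DESeq2 called 0, where 0.0272% of its genes were lower and 0.184% higher. Chad and Cilp2 had an unadjusted p under 0.05, both lower, as had 1.38% of all tested genes. They stood below every NOR mouse in all 4 KD mice, as did 0.929% of all tested genes, with log2 fold changes of -1.54 ± 0.50 and -1.71 ± 0.68 (SE). NOR and CAC mice are each shared between comparisons, so these values are set side by side only. Whether the response to amiloride differed from that to Rab27 knock-down was not tested.

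Acan stood apart from the other members. It was at 0, 0.479, 0.0601 and 0.0675 CPM in NOR and at 0.181, 0.0445, 0.324 and 0 CPM in CAC. The 0 counts of NOR-1 and CAC-4 allow at most 0.0813 and 0.0472 CPM. AM mice were at 0.739, 0.223, 3.21 and 0.0852 CPM, and KD mice at 0.324, 0.10, 0.189 and 4.07 CPM. The gene was thus high in AM-3 and KD-4 and at most 0.739 CPM in the other 14 mice. In AM vs. CAC its log2 fold change was 2.92 ± 1.32 (SE, edgeR FDR = 0.243), and without AM-1 and AM-3 it was 0.15.

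Col2a1, Col10a1 and Ibsp were also highest in these 2 libraries. Col2a1 was at 64.0 CPM in AM-3 and 29.9 CPM in KD-4, against at most 3.12 CPM in the other 14. Col10a1, the collagen of hypertrophic cartilage, was at 6.74 and 10.1 CPM there and at most 0.667 CPM elsewhere. Ibsp, encoding bone sialoprotein, was at 25.1 and 7.08 CPM there and at most 1.96 CPM elsewhere. The 16 other cartilage genes summed to 234 CPM in AM-3, 208 CPM in NOR-1 and 205 CPM in KD-4. The summed bone markers were at 41.9 CPM in AM-3, 13.9 CPM in KD-4 and 7.97 CPM in KD-1, against at most 3.14 CPM in the other 13 mice. Tnmd was at 18.4, 17.6 and 19.4 CPM in these 3 mice, and the part of such genes in its level was not tested. Sox9, the factor upstream of Acan in cartilage, was at 3.59 CPM in AM-3 and 4.11 CPM in KD-4, within the range of other mice.

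**Figure D5:**
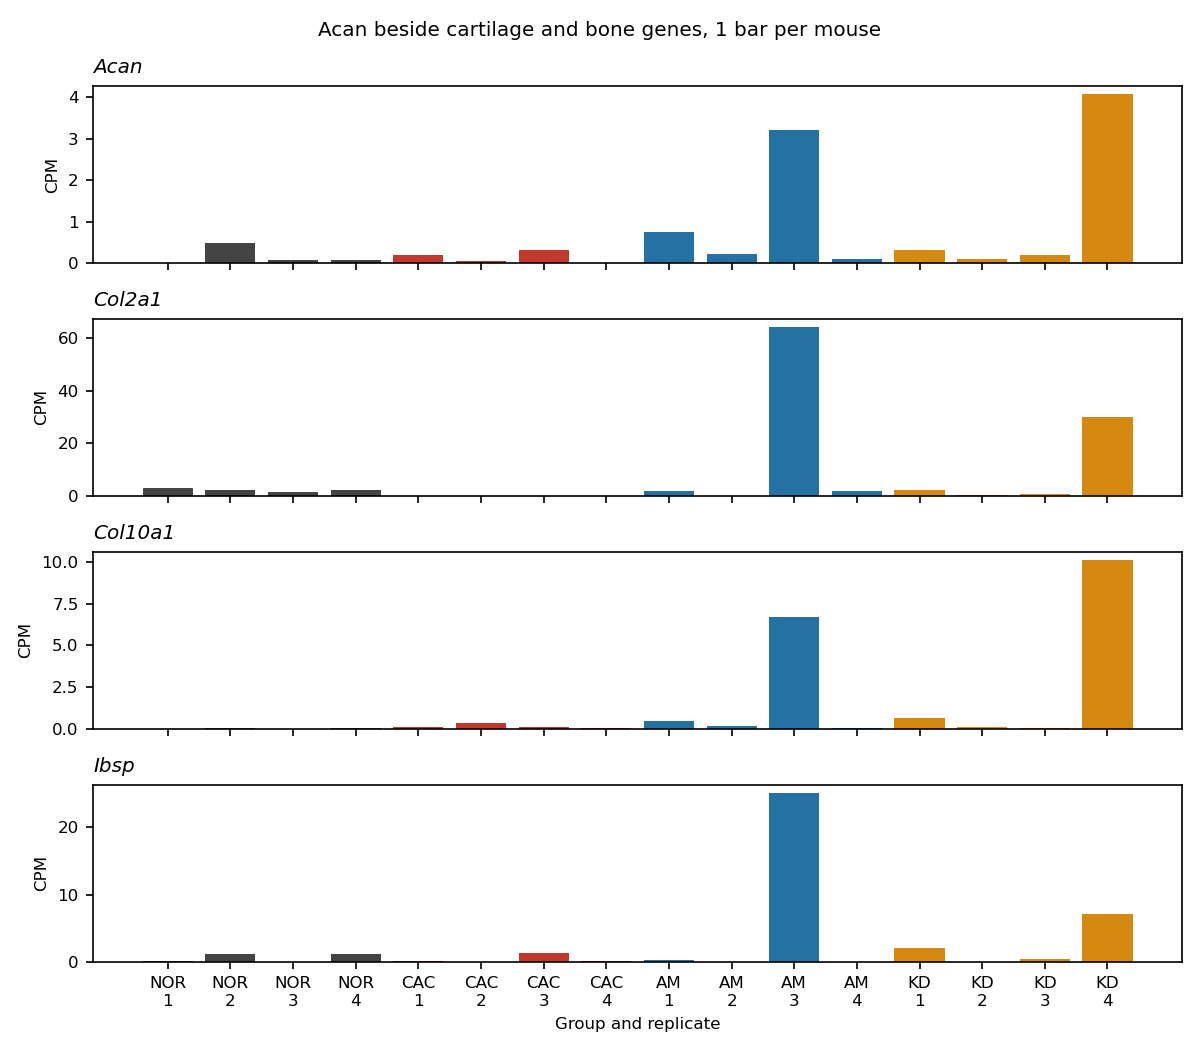
Acan, Col2a1, Col10a1 and Ibsp in each mouse, in CPM on linear axes that start at 0, 1 bar per mouse coloured by group. All 4 genes have their 2 highest bars in AM-3 and KD-4, at 3.21 and 4.07 CPM for Acan.

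Across mice, the members did not all vary together once each group's mean had been removed. Over 36 pairs and 16 mice, log2 CPM of Tnmd and Cilp2 had Pearson's r = 0.86 (p = 0.00134 by permutation within groups, adjusted p = 0.0241) and Spearman's rho = 0.77 (p = 0.00314, adjusted p = 0.0565). The value was 0.78 without the 2 mice farthest from the median of Tnmd, 0.71 without KD-2, 0.98 within C57BL/6 and 0.75 within BABL/c mice. Within a strain each group held 2 mice, whose deviations mirror each other, so each group adds a single independent point to such values. Mkx and Thbs4 had r = 0.82 (permutation p = 0.00066, adjusted p = 0.0238) and rho = 0.81 (permutation p = 0.0006, adjusted p = 0.0216), with 0.72 without the 2 farthest mice and 0.91 and 0.97 within the strains. Tnmd and Mkx had r = 0.72 (permutation p = 0.00214, adjusted p = 0.0257) and rho = 0.69 (permutation p = 0.0174, adjusted p = 0.141). For Tnmd and Mkx r was 0.64 without the 2 farthest mice and 0.83 and 0.76 within the strains. Tnmd and Scx, both tenocyte genes, had r = -0.06 (permutation p = 0.906, adjusted p = 0.906) and rho = 0.27 (permutation p = 0.408, adjusted p = 0.622). Without KD-2 their r was 0.64. Within C57BL/6 and BABL/c mice it was -0.53 and 0.77, so the pooled value depends on the mice included.

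The genes whose levels most resembled each member, by Pearson's r of log2 CPM over the 16 mice after removal of group means, were sought among 13180 genes. For Tnmd they were Ssc5d (0.96), Col1a2 (0.95) and 1500015O10Rik (0.94). For Comp they were Zc3hav1l, Fmod and Timp2 (0.89 each), and for Cilp2 Dpp6 (0.91), Col11a1 (0.88) and Ptprs (0.88). Chad was nearest to Zfp354c, Caprin2 and Lrrcc1 (0.92, 0.90 and 0.88), and Thbs4 to Fbln1, Lgi4 and Mxra8 (0.93, 0.88 and 0.88). Mkx was nearest to Hmcn2, Lama2 and Ednra (0.93, 0.92 and 0.92), Scx to Fibp, Tmem88 and Cbx6 (0.89, 0.88 and 0.88), and Sox9 to Otud1, Ciart and Hspb1 (0.92, 0.84 and 0.82). These are descriptions over libraries that share depth and composition, and Col1a2, Fmod and Col11a1 are the tendon and cartilage matrix genes among them.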

How the data were processed

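Poly(A) RNA-seq libraries of gastrocnemius from 16 mice (4 per group, 1 library per mouse) were made and sequenced by the authors, who deposited whole-number counts per gene without normalization. The deposited FPKM values were computed by the authors with 1 length per gene, and served here only to compare levels between genes. The submitters' processing notes name fastp, Bowtie2, HISAT2, StringTie 1.3.1, mm9 and GRCm38, and the role of each, the counting tool and the strand setting are not given in the sources used here. Columns of the authors' own comparisons were not used.

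Groups came from the sample labels. The test was the quasi-likelihood F test of edgeR 4.0.16 (R 4.3.3) with TMM scaling, over genes kept by filterByExpr at its limits of 10 (count) and 15 (total), in fits of the 8 libraries compared and without covariates. Calls needed a Benjamini-Hochberg FDR of at most 0.05 over all tested genes and a 1.5-fold difference in either direction. NOISeq, which the authors' methods name, was not used here. DESeq2 1.42.0, limma-voom (limma 3.58.1), other scalings and filters, single strains, labelled strain as a covariate, a replicate block and leave-one-out fits were alternatives, and fits without AM-1 and AM-3, or without KD-3 and KD-4, were added after the data were seen. Scripts were tested on simulated counts. Libraries of a group differed far beyond counting error, so the spread between mice sets the precision. Limits from a count of 0 use 3 counts and cover counting error only. The relation of member pairs used 100000 permutations within groups, and log2 CPM a prior count of 2. Positions came from GENCODE M21 (GRCm38), and promoters from a table of RefSeq sequences in which 5 of the 9 members were matched. Figures were drawn with matplotlib 3.10.9.

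The members, gene lists and alternatives were chosen with earlier results of these data known. Genes named are the 9 members, genes of the lists, and for each member with a mean of at least 1 CPM the 3 genes with the highest Pearson's r within groups. Alb, Myh7, Bop1 and Acsf2 were named after their values were seen or because they overlap a member.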

Additional observations from a re-analysis of the deposited data

Results flagged for a closer look

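Of 36 sets of 4 values (9 genes in 4 groups), 4 held a mouse far from the other 3, by Dixon's criterion, and chance alone marks about 1 set in 20. Acan was at 4.07 CPM in KD-4, where the other KD mice were at most at 0.324 CPM. In NOR, Acan was at 0.479 CPM in NOR-2, from 29 counts, against at most 0.0675 CPM in the other mice. Mkx was at 4.04 CPM in NOR-1 against 2.14 to 2.26 CPM in the other NOR mice. Tnmd was at 1.37 CPM in CAC-3, below the 2.53 to 2.70 CPM of the other CAC mice, a gap that is small beside the NOR values of 16.5 to 37.6 CPM.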

How the results depend on the processing

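In CAC vs. NOR the 4 calls were also made by DESeq2, by limma-voom and with the replicate number as a block (4 members called), and their number fell to 0 within BABL/c mice. In AM vs. CAC, 3 members were called, against 1 with all 16 libraries in 1 fit, 0 within C57BL/6 mice, 0 within BABL/c mice, 0 with the replicate block, 0 without AM-1 and AM-3 (added after the data were seen), and 1 to 2 with 1 mouse left out. With labelled strain as a covariate the number stayed at 3, with Chad gained and Cilp2 lost, and that fit changed no count of calls in the other comparisons. Same-numbered mice did not deviate together in all pairs (correlations from -0.64 to 0.60), so the numbers mark no pairs, and the block removes degrees of freedom. For the block and for the fit of all 16 libraries, the share of all genes called was not computed. Their counts of members called cannot be set against it. DESeq2 called 1 member in KD vs. CAC and 2 in AM vs. NOR, and in the strain interaction 1 in CAC vs. NOR and 2 in AM vs. CAC, where edgeR called 0 of each.

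Some values that did not pass the test changed sign. In CAC vs. NOR, within C57BL/6 mice the log2 fold change was -0.19 for Scx and 0.59 for Sox9, which was -0.63 over both strains, and that of Scx ran from -0.010 to 0.59 with 1 mouse left out. In KD vs. CAC, total-count scaling gave -0.012 for Thbs4 and -0.0034 for Sox9, BABL/c mice gave -0.18 and -0.0065, and Mkx was -0.023 without KD-3 and KD-4. With 1 mouse left out there, Mkx ran from -0.21 to 0.46, Thbs4 from -0.28 to 0.19 and Sox9 from -0.051 to 0.42. In AM vs. NOR, Mkx ran from -0.41 to 0.0095 and Thbs4 from -0.053 to 0.23. The cause was not tested. With 4 mice per group, and 2 per strain, small differences were not detectable, and Acan and Mkx rest on few counts.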
